A study of Mus musculus with 2 samples.

Results

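The genes described here are 33 genes of white and brown fat cells, read on 2 expression arrays of whole mouse lung. They were taken by name, as adipokines, lipid droplet proteins, enzymes of fat synthesis and breakdown, thermogenic genes and their regulators, and the names were chosen with the differences between these 2 arrays already known. All 33 had at least 1 probe, 46 probes in all, among 20882 gene symbols on the array. The arrays compare C57BL6/N lung carrying an HSP27 overexpression transgene with C57BL6/N lung without it, 1 array each. Both samples came from animals labelled male and 6 weeks old, both had received bleomycin into the trachea at 1.25 mg/kg, and both were taken at 14 days. Bleomycin is a drug that injures the alveoli and is followed by scarring of the lung. Neither group was free of bleomycin, and the promoter that drives the transgene, the species of its sequence and the pooling of animals are not given in the sources used here.

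White fat cells store triglyceride in a large droplet coated by perilipins, release fatty acids by stepwise lipolysis, and secrete hormones called adipokines. Brown fat cells burn fatty acids, and the uncoupling protein Ucp1 in their mitochondria turns that energy into heat. Both kinds are formed under the nuclear receptor Pparg and the factor Cebpa. In the lung, several of the same enzymes also work in alveolar type 2 cells, which make surfactant lipid, and in alveolar macrophages, while adipose tissue lies outside the airways, around the mediastinum and the heart.

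A single array stands for each group, so neither the spread between animals nor a test can be given, and every difference below describes these 2 arrays alone. Signals are fluorescence intensities after background subtraction by the scanner software. Differences are log2, transgenic minus C57BL6/N, after each array was scaled to its 75th percentile (1426 on the transgenic array and 1287 on the C57BL6/N array). The technical SD of a difference between repeated spots was 0.17 for dim, 0.09 for middling and 0.08 for bright probes. Hspb1, the gene that encodes HSP27, read 53554 on the transgenic array and 41040 on the C57BL6/N array, a difference of 0.24. The type 2 cell gene Sftpc was bright on both, at 376982 on the transgenic array and 448223 on the C57BL6/N array. Sex-linked transcripts differed although both samples are labelled male. Xist, made from the inactive X chromosome of female cells, fell short of the background criterion on the transgenic array (3.36, against 330 on the C57BL6/N array, at the probe with the smaller bound). Ddx3y, Eif2s3y and Uty of the Y chromosome were higher on the transgenic array by 2.11, 1.91 and 1.93. On the C57BL6/N array they were well above background too, at 508, 800 and 17.1, so Xist and Y chromosome transcripts were read together there. Kdm5d, also of the Y chromosome, was above background on the transgenic array alone. Since each group has 1 array, no result below can be given without either of them.

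More fat cell genes lay high on the transgenic array than low. Of the 33 genes, 27 were well above background on both arrays, 5 on the transgenic array alone, and Lep on neither. Of the 27, 8 were higher in the transgenic lung by 2-fold or more, where 3.82% of the 15491 genes measured on both arrays were, and 0 were at least 2-fold lower, against 1.87% of all genes. At 1.5-fold, 12 were higher (10.2% of all genes) and 0 lower (8.31% of all genes). The 5 genes seen on the transgenic array alone have a lower bound to their difference, and all 5 bounds passed 2-fold, as did 38.5% of 507 such genes. None of the 33 was seen on the C57BL6/N array alone, where 29.1% of 333 bounds passed 2-fold in the lower direction. The median of the 27 was 0.48, or 0.69 with the 5 at their bounds, and that of all genes was -0.04. These counts repeat what the names were chosen on and are given as a description. Whole lung was read, so fewer cells of a type and less RNA per cell cannot be told apart.

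**Figure D1:**
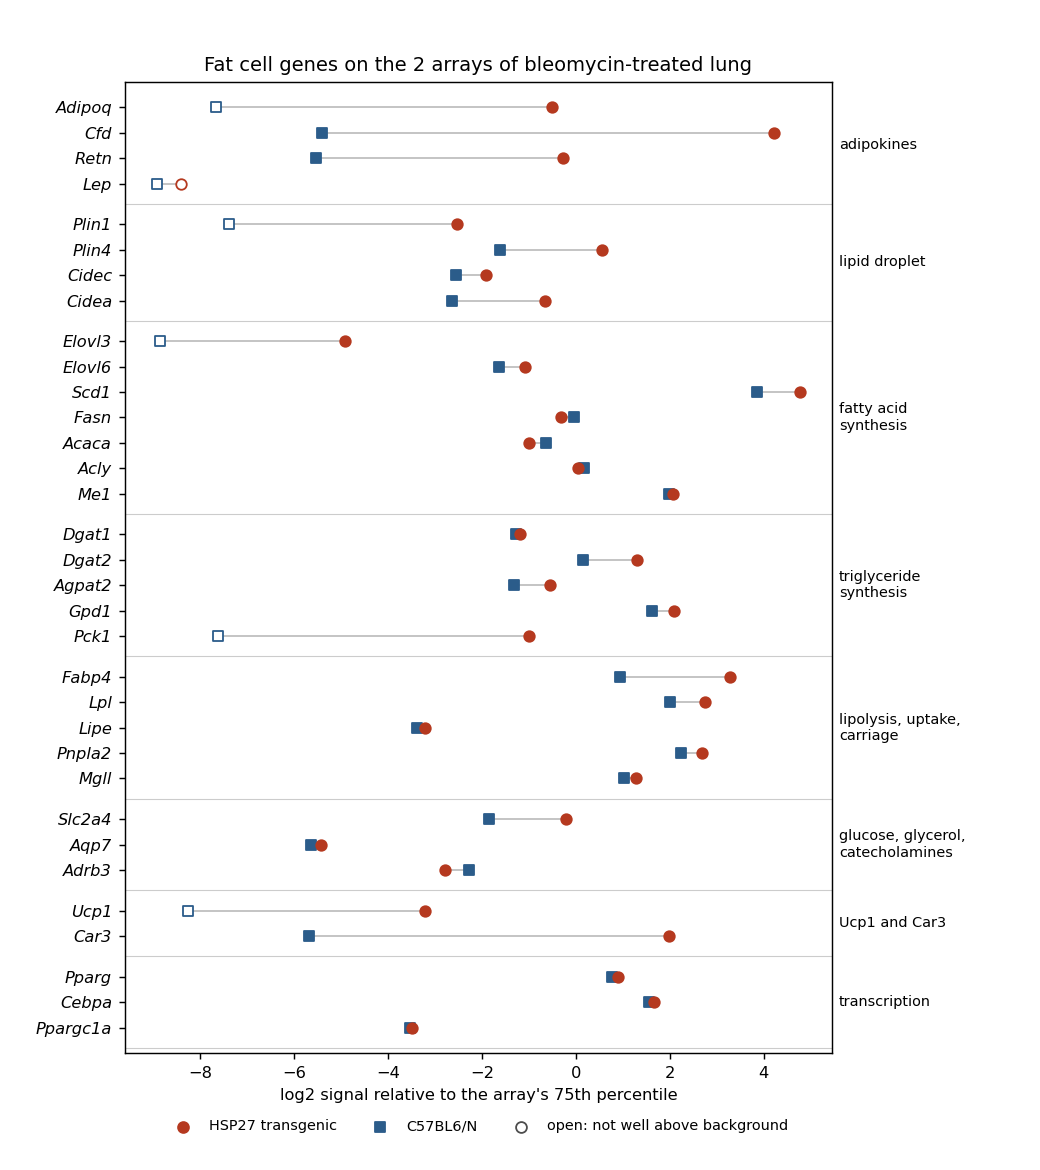
Signal of the 33 fat cell genes on the transgenic array (red circles) and the C57BL6/N array (blue squares), as log2 relative to the 75th percentile of each array, grouped by role; open symbols were not well above background. Adipoq, Plin1, Elovl3, Pck1 and Ucp1 have an open square and a filled circle, while Fasn, Me1, Pparg and Cebpa have their symbols side by side.

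The promoters of 3 genes are shown because Cfd had the largest difference of all genes measured on both arrays, Adipoq had the largest bound among the fat cell genes, and Plin1 was the other gene at least 16-fold higher whose promoter held a searched motif. Each is the 250 bases before the start of transcription, 5′ to 3′, from RefSeq on GRCm38.p6. Adipoq lies at chr16:23146286-23146535, plus strand. Cfd lies at chr10:79890603-79890852, plus strand, and Plin1 at chr7:79732777-79733026, minus strand. The array was designed on another build, so these positions locate the promoters and not the probes. Capitals mark matches to the motifs described below.
Adipoq: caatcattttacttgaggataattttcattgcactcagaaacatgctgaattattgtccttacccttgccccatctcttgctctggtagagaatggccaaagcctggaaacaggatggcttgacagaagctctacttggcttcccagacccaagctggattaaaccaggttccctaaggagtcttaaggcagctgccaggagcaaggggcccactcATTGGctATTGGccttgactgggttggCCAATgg
Cfd: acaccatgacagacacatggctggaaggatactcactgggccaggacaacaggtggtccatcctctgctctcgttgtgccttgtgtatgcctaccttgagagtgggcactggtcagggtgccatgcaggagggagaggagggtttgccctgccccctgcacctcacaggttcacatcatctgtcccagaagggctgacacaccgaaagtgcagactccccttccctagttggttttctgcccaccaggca
Plin1: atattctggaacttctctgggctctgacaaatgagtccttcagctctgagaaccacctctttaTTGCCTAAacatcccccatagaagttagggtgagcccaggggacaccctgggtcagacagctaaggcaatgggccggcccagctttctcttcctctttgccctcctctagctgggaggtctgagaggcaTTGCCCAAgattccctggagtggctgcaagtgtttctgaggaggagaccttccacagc

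The motifs were searched on both strands in the promoters of the 22 fat cell genes with an entry and in the first entry of 27025 genes. The CCAAT box, CCAAT, was present 3 times in the Adipoq promoter, at bases 34 to 30 and 27 to 23 before the start on the minus strand and at bases 7 to 3 on the plus strand. The Plin1 promoter held 2 matches to TTGCNNAA, a form of the C/EBP recognition sequence, at bases 187 to 180 and 58 to 51. The Cfd promoter held none of the motifs in these letters. Across the 22 promoters, CCAAT was in 3 (13.6%) against 34.5% of all promoters, and TTGCNNAA in 2 (9.09%) against 9.55%. The half-site AGGTCA, bound by nuclear receptors, was in 5 (22.7%) against 13.8%, those of Acly, Aqp7, Elovl6, Pparg and Ucp1. A direct repeat of that half-site with 1 base between the copies, which the count above includes, was in 0 of 22 against 0.037%. TATAAA was in 1 (Cebpa) against 13% of all, and the sterol element TCACNCCAC in 0 against 1.04%.

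Of the 4 adipokines, hormones that fat cells release into the blood, 3 were far higher on the transgenic array and Lep had no value. Cfd encodes adipsin, the complement factor D that fat cells secrete. It read 26422 on the transgenic array and 30.3 on the C57BL6/N array, a difference of 9.62 or 787-fold, first among all genes measured on both arrays. Retn encodes resistin, an adipokine of mouse white fat. Its probes read 1223 and 1154 on the transgenic array and 29.2 and 26.4 on the C57BL6/N array. Both probes gave nearly the same difference, 5.24 and 5.30, and the gene was 38.6-fold higher. Adipoq encodes adiponectin, the most widely used marker of mature fat cells. It read 1007 on the transgenic array and 6.34 on the C57BL6/N array, where it was not well above background, so it was at least 76.1-fold higher. Lep, the satiety hormone leptin of white fat, read 4.21 on the transgenic array and 2.67 on the C57BL6/N array, below the background criterion on each, so no difference is given.

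All 4 lipid droplet genes were at least 1.5-fold higher or had such a bound. Plin1 encodes perilipin 1, the coat protein of the large droplet of fat cells that gates lipolysis. It read 247 on the transgenic array and 7.68 on the C57BL6/N array, where it was not well above background, and was at least 18.7-fold higher. Plin4, a perilipin of nascent droplets, read 2089 on the transgenic array and 419 on the C57BL6/N array, a difference of 2.17 or 4.50-fold. Cidea, which enlarges droplets and is abundant in brown fat, read 902 on the transgenic array and 207 on the C57BL6/N array, a difference of 1.98. The C57BL6/N lung thus had measurable Plin4 and Cidea signal but none of Plin1 above background. Cidec, which fuses droplets in white fat, was higher by 0.63, and its probes disagreed in size. The brighter probe read 1960 on the transgenic array and 1495 on the C57BL6/N array, a difference of 0.24. The dimmer probe read 73.7 on the transgenic array and 32.8 on the C57BL6/N array, a difference of 1.02. The call at 1.5-fold was thus lost with the brighter probe alone. It was also lost with normexp background correction (0.31), whose added offset shrinks differences of dim probes.

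The genes of heat production and of carbonic anhydrase 3 were also far apart. Ucp1 marks brown and beige fat cells. It read 154 on the transgenic array and 4.22 on the C57BL6/N array, where it was not well above background, and was at least 11.7-fold higher. Car3 encodes a carbonic anhydrase abundant in fat and in slow muscle. It read 5631 on the transgenic array and 25.3 on the C57BL6/N array, a difference of 7.65 or 201-fold, the fifth largest of all genes measured on both arrays. Elovl3, a fatty acid elongase of brown fat and skin glands, read 47.7 on the transgenic array and 2.79 on the C57BL6/N array, where it was not well above background, a bound of at least 3.60-fold. Ppargc1a, the coactivator that drives mitochondrial and thermogenic genes, was at 0.03, with probes at -0.05 and 0.10. It read 127 on the transgenic array and 112 on the C57BL6/N array as the mean of its probes, and its sign turned under 3 of 10 alternative settings.

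Of the 7 genes that build fatty acids, Scd1 and, by its bound, Elovl3 were past 1.5-fold on the higher side. Fasn, the fatty acid synthase, read 1146 on the transgenic array and 1257 on the C57BL6/N array, a difference of -0.28. Acly, which makes cytosolic acetyl-CoA, was at -0.14, with probes at -0.29 and 0.02, and Acaca, the rate-limiting carboxylase, at -0.36. The brightest Acaca probe read 6037 on the transgenic array and 5221 on the C57BL6/N array, a difference of 0.06, and the next read 84.6 on the transgenic array and 131 on the C57BL6/N array, a difference of -0.78. Another Acaca probe was above background on the transgenic array alone and was not used. It read 24 on the transgenic array and 11.9 on the C57BL6/N array, a bound of 0.86 in the other direction. The small negative values of Acly and Acaca therefore came from the dimmer usable probe of each, and turned positive with the brightest probe per gene. Me1, the malic enzyme that supplies NADPH, was at 0.07, with 3 probes between 0.03 and 0.11. Elovl6, an elongase of long-chain fatty acids, was at 0.55, and passed 1.5-fold with median scaling (0.61) and cyclic loess (0.63). Scd1, the desaturase that makes oleate in fat, liver and type 2 cells, read 38854 on the transgenic array and 18533 on the C57BL6/N array, a difference of 0.92. The median of the group with the bound of Elovl3 was 0.07.

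Among the genes of triglyceride synthesis, Pck1 stood apart. Pck1 makes the glycerol backbone from non-sugar sources in fat and also serves glucose production in liver and kidney. It read 715 on the transgenic array and 6.59 on the C57BL6/N array, where it was not well above background, and was at least 54.0-fold higher. Dgat2, which adds the last fatty acid, read 3504 on the transgenic array and 1441 on the C57BL6/N array, a difference of 1.13. Dgat1, the other enzyme of that step, read 628 on the transgenic array and 534 on the C57BL6/N array, a difference of 0.09. The enzymes of the same final step thus differed by unequal amounts. Agpat2, whose loss in humans causes lack of fat tissue, was higher by 0.78 (976 on the transgenic array and 514 on the C57BL6/N array), and Gpd1, which makes glycerol phosphate, by 0.48.

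Genes of fatty acid uptake had larger differences than those of lipolysis. Fabp4 encodes the fatty acid carrier of fat cells and is also made by capillary endothelium and macrophages. It read 13794 on the transgenic array and 2485 on the C57BL6/N array, a difference of 2.32 or 5.01-fold. Lpl, the lipase that frees fatty acids from lipoproteins, read 22072 and 4131 at its probes on the transgenic array and 11295 and 2349 on the C57BL6/N array, differences of 0.82 and 0.67. The lipolytic enzymes act in turn on triglyceride, diglyceride and monoglyceride. Pnpla2, the triglyceride lipase, was at 0.43, and Lipe, the hormone-sensitive lipase, at 0.17, equal to the technical SD for its brightness. Mgll, the monoglyceride lipase, was at 0.26, but its probes differed by transcript record. The probes of 1 record were at -0.12 and -0.09, and the usable probe of the other, which read 1117 on the transgenic array and 511 on the C57BL6/N array, was at 0.98.

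Of the genes that bring glucose, glycerol and catecholamine signals to the fat cell, Slc2a4 alone passed 1.5-fold. It encodes the insulin-sensitive glucose transporter of fat and striated muscle, and read 1230 on the transgenic array and 358 on the C57BL6/N array, a difference of 1.63. Aqp7, the glycerol channel of fat cells, was dim on both arrays (33.1 on the transgenic array and 26.0 on the C57BL6/N array), a difference of 0.20 that turned to -0.03 with another background correction. Adrb3, the beta-adrenergic receptor of fat cells, had the lowest difference of the 33 genes, -0.51. Its probes were at -0.75 and -0.26, the brighter of them at 689 on the transgenic array and 1047 on the C57BL6/N array. It was 1 of 4 genes below 0, with Fasn, Acly and Acaca.

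The master regulators of fat cell formation were close to equal. Pparg read 2664 on the transgenic array and 2203 on the C57BL6/N array, a difference of 0.13. Cebpa read 4503 on the transgenic array and 3777 on the C57BL6/N array, a difference of 0.11. These values lie inside the central 95% of all genes, -0.92 to 1.24, as do 20 of the 27 genes measured on both arrays.

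**Figure D2:**
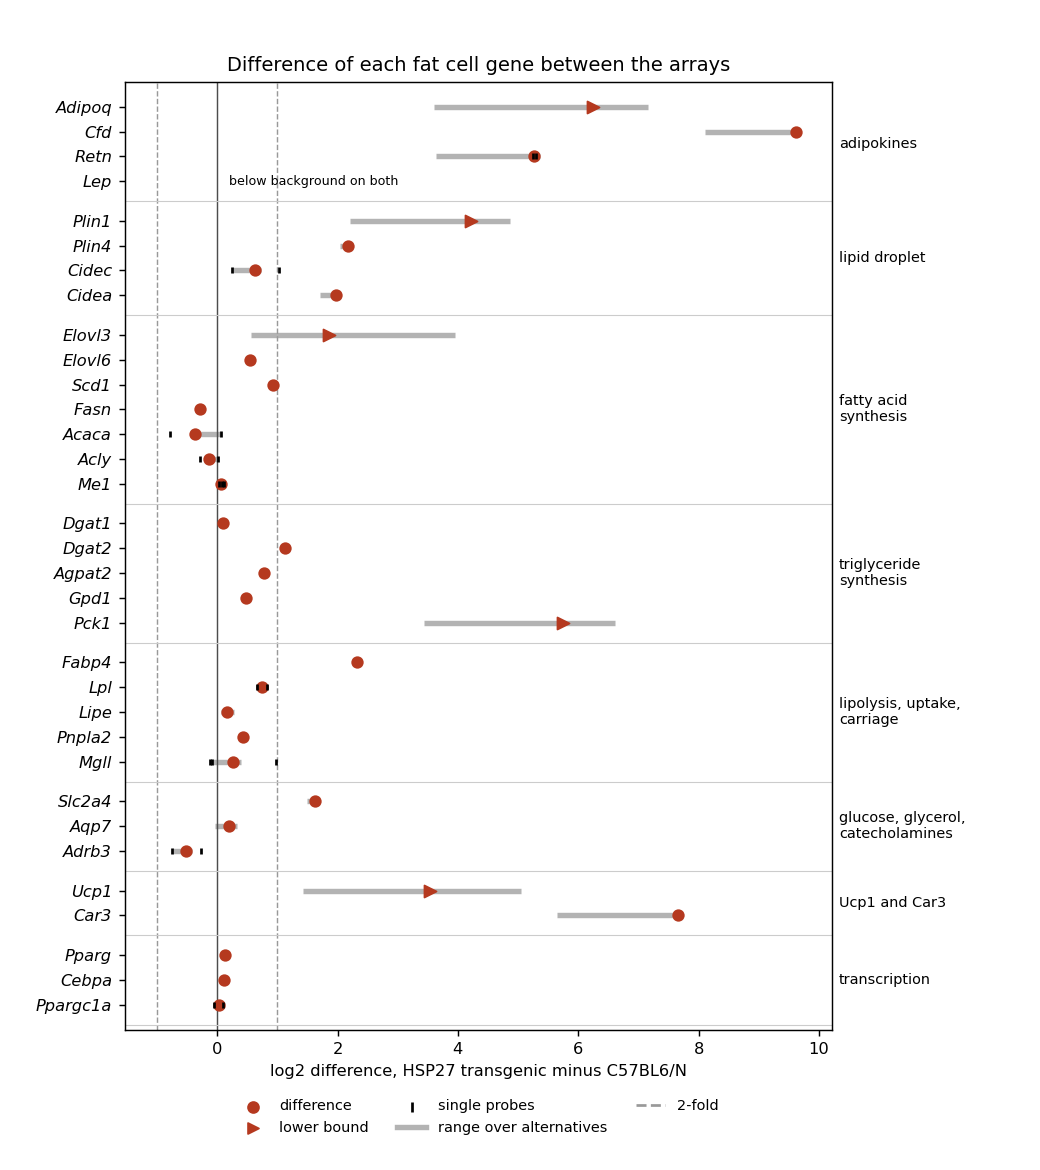
Log2 difference, transgenic minus C57BL6/N, of each fat cell gene (red circles), or its lower bound (red triangles), with single probes as black ticks, the range over the alternative settings that gave a value (10, or 9 for Cfd, Retn, Car3 and Aqp7) as grey bars and 2-fold as dashed lines. Cfd, Car3 and Retn lie beyond 5 and the regulators Pparg, Cebpa and Ppargc1a lie between 0.03 and 0.13.

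The genes with the largest differences had C57BL6/N signals near the background, and their values were smaller under another background correction. That correction adds an offset to every signal, which by itself shrinks differences whose dimmer side is near background. The smaller values are therefore no separate estimate of the background. With normexp correction and an offset of 50, Cfd was at 8.10, Car3 at 5.65 and Retn at 3.64, and the bounds were 3.60 for Adipoq, 3.43 for Pck1, 2.21 for Plin1, 1.42 for Ucp1 and 0.57 for Elovl3, with Elovl3 thereby below 1.5-fold.

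Many of the 33 genes belong to families in which other members serve other tissues, and a list of 44 such relatives in 21 families was read beside them. The relatives were spread around 0, with a median of -0.07 over the 39 measured on both arrays. Past 1.5-fold lay 6 on the higher side (10.2% of all genes) and 4 on the lower (8.31% of all genes). In 16 of the 21 families every fat cell gene had a higher difference or bound than every relative with a value. For Elovl6 and Adrb3 the gap to the nearest relative was smaller than the technical SD. Both the fat cell genes and the relatives were listed with results of these arrays known, so this count is a description and no support for the differences above. Retn at 5.27 stood beside Retnla, the resistin-like molecule of type 2 inflammation, which read 107390 on the transgenic array and 51614 on the C57BL6/N array (0.91), and beside Retnlg of neutrophils (0.17). Retnlb, the resistin-like molecule of gut and airway goblet cells, was seen only on the transgenic array, at least 1.87-fold higher. Ucp1, with its bound of 3.54, stood beside Ucp2 (0.43) and the muscle form Ucp3 (0.60), and Car3 at 7.65 beside Car1 (-0.75), Car2 (-0.52) and Car4 (-0.47). Pck1, with its bound of 5.75, stood beside the mitochondrial form Pck2 (-0.41).

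Among the lipid carriers and droplet coats the fat cell genes also lay above their relatives. Fabp4 at 2.32 stood beside Fabp3 of heart and muscle (0.37) and Fabp5 of skin and macrophages (0.60). Plin1 (bound 4.22) and Plin4 (2.17) stood beside the widely made Plin2 (0.10) and Plin3 (-0.26) and the heart and liver form Plin5 (0.71). Cidea at 1.98 and Cidec at 0.63 stood beside Cideb of liver and gut (-0.04). Scd1 at 0.92 stood beside Scd2 (-0.24), Scd3 (-0.10, with probes at -0.92 and 0.73) and Scd4 (-0.34). Slc2a4 at 1.63 stood beside the general transporters Slc2a1 (0.78) and Slc2a3 (-0.07), and Lpl at 0.74 beside the endothelial lipase Lipg (-0.85). Lipc, the liver lipase, was not well above background on either array.

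Elovl3, Elovl6, Agpat2, Gpd1 and Me1 were likewise above every relative with a value. Elovl3 (bound 1.85) and Elovl6 (0.55) stood beside Elovl1 (0.49), Elovl4 (0.36), Elovl7 (0.06) and Elovl5 (-0.69). The gap between Elovl6 and Elovl1 was smaller than the technical SD, and the probes of Elovl1 lay at 0.28 and 0.70. Elovl2, seen only on the C57BL6/N array, was at least 1.64-fold lower in the transgenic lung. Agpat2 at 0.78 stood beside Agpat1 (-0.24) and Agpat3 (0.08), Gpd1 at 0.48 beside Gpd2 (-0.12) and Gpd1l (-0.14), and Me1 at 0.07 beside Me2 (-0.12) and Me3 (-0.38). The receptors and regulators kept within narrow ranges. Pparg at 0.13 stood beside Ppara (-0.17) and Ppard (-0.18), Cebpa at 0.11 beside Cebpb (0.11) and Cebpd (0.12), and Adrb3 at -0.51 beside Adrb1 (-0.52, a gap smaller than the technical SD). Besides Cebpa, the other direction was seen for Aqp7 at 0.20, beside Aqp3 of airway basal cells and skin, which read 1413 on the transgenic array and 135 on the C57BL6/N array (3.24). It was also seen for Pnpla2 at 0.43 beside Pnpla3 (bound 1.28), for Ppargc1a at 0.03 beside Ppargc1b (0.32), and for Acaca at -0.36 beside Acacb (0.22). Aqp9, a glycerol channel of liver, was not well above background on either array.

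**Figure D3:**
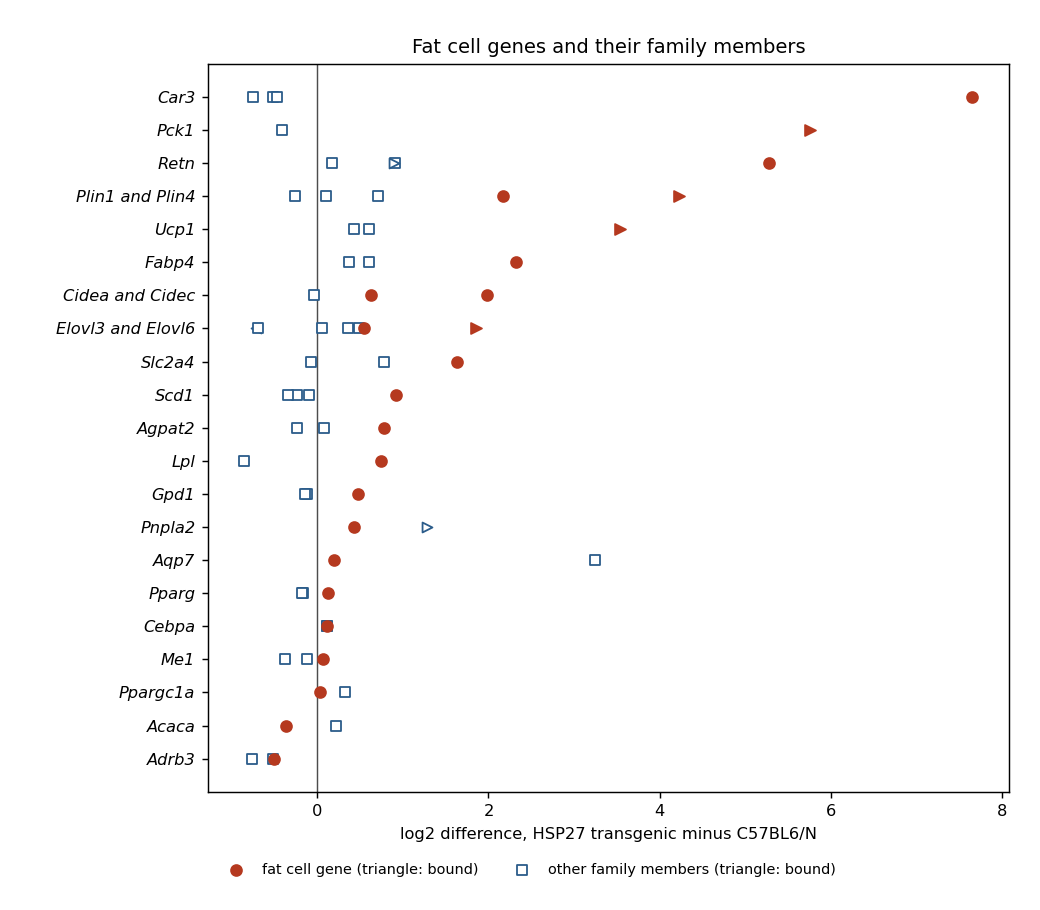
Log2 difference, transgenic minus C57BL6/N, of fat cell genes (red) and of other members of their gene families (open blue), 1 family per row, with triangles for bounds. Red symbols lie right of the open ones in 16 of 21 families, and Aqp3 at 3.24 is the open symbol farthest to the right.

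Fat cell genes outside the 33 were followed with a list of 40 genes of adipocytes in general. Both arrays measured 37 of them. Past 1.5-fold lay 9 on the higher side (10.2% of all genes) and 3 on the lower (8.31% of all genes). Their median was 0.22. The largest differences were those of Sfrp5, a secreted Wnt inhibitor of fat, which read 153 on the transgenic array and 21.7 on the C57BL6/N array (2.67), Orm1 (2.06), a plasma protein made by liver and fat, Sncg, gamma-synuclein (1.91), and Thrsp, a lipogenic nuclear protein (1.56). Adig, adipogenin, was at 1.44. The receptor Acvr1c and the early factor Ebf2 were seen only on the transgenic array, at least 2.95-fold and 2.17-fold higher. The lower genes were Cav1 (-1.08), the caveolar protein of fat that is also abundant in alveolar type 1 and endothelial cells, Acot1 (-0.71) and Irs1 (-0.66).

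A list of 24 further brown fat genes gave values on both arrays for 21, with a median of 0.10. Past 1.5-fold lay 7 on the higher side (10.2% of all genes) and 1 on the lower (8.31% of all genes). The other 13 were within 1.5-fold, among them Cpt1b (0.08), Kcnk3 (-0.08), Ppara (-0.17) and Zic1 (-0.31). Lhx8, Fgf21 and Klb were not well above background on either array. Cox8b, a cytochrome oxidase subunit of brown fat and striated muscle, read 1741 on the transgenic array and 334 on the C57BL6/N array (2.24), and its partner Cox7a1 differed by 1.03. Slc27a2 was at 1.59, Dio2, the deiodinase that activates thyroid hormone in brown fat, at 1.40, and Esrrg, a nuclear receptor of brown fat and heart, at 1.24. Prdm16, a determinant of brown fat identity, was lower by 0.68 on the log2 scale, at 625 on the transgenic array and 905 on the C57BL6/N array. With normexp, whose offset shrinks differences of dim genes, Sfrp5 was at 1.20 and Orm1 at 1.26, below Sncg (1.63) and Thrsp (1.46). Past 1.5-fold on the higher side, measured or by bound, were then 8 adipocyte genes, against 11 without normexp. Under the same correction Esrrg was at 0.33, and 5 brown fat genes passed 1.5-fold on the higher side and 0 on the lower. Both lists were drawn up with results of these arrays known, and no share of either is support for the differences above.

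Of 9 partners of fat cell products, 2 complement genes were past 1.5-fold on the higher side and the leptin receptor on the lower. Of all genes, 10.2% were that much higher and 8.31% that much lower. Cfb, the substrate that adipsin cleaves, read 9323 on the transgenic array and 3834 on the C57BL6/N array (1.13), and C3, which pairs with it in the alternative pathway, 91520 on the transgenic array and 53266 on the C57BL6/N array (0.63). Lepr, the leptin receptor, was at -0.90, with probes from -1.34 to -0.39. The other 6 were within 1.5-fold.

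Markers of other tissues and cells differed on the same arrays as the fat cell genes. Of 13 cardiac muscle markers, 9 were measured on both arrays and all 9 were at least 2-fold higher, from 1.32 to 7.09, and the other 4 were seen only on the transgenic array. Their summed signal, in units of the 75th percentile of the array, was 40.9 on the transgenic array and 5.02 on the C57BL6/N array. For the fat cell genes it was 101 and 45.3, in the same order. The largest parts were fatty acid synthesis (34.3 and 21.5) and lipolysis, uptake and carriage (25.3 and 12.8), with genes that lung cells also make. The adipokines alone summed to 20.1 and 0.05. Myh6, the atrial and ventricular myosin, was at 7.09, and Sln, an atrial calcium pump inhibitor, at least 283-fold higher. Striated muscle also makes Car3, Slc2a4, Cox8b, Cox7a1 and Lpl, and the part of heart muscle in those differences was not tested. Of 9 skeletal muscle markers, Myh1, Myh2, Myh4 and Mylpf were not well above background on either array. Of the 4 with values on each array, 3 passed 1.5-fold on the higher side, Tnnt3 (2.82), Acta1 (2.03) and Actn3 (0.78). Ckm was seen only on the transgenic array, at least 2.11-fold higher. The summed signals were 1.80 on the transgenic array and 1.30 on the C57BL6/N array. Tnni2 weighs most in these sums, at 1604 on the transgenic array and 1481 on the C57BL6/N array (-0.03). The part of skeletal muscle in the differences of the fat cell genes was not tested.

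The airway and liver lists were also higher on the transgenic array. All 7 airway secretory and basal cell markers were at least 1.5-fold higher, with summed signals of 114 on the transgenic array and 0.716 on the C57BL6/N array. Of 5 hepatocyte markers, 3 were measured on both arrays and all 3 were at least 2-fold higher, with Serpina1a at 2.87, Cyp2e1, which fat also makes, at 2.66 and Alb at 1.79. Apoa1 was not well above background on either array. The hepatocyte sums were 1.61 on the transgenic array and 0.254 on the C57BL6/N array. The part of these tissues in the differences of Pck1 and Orm1 was not tested.

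Markers of lung cells that share genes with fat were below 0 or lay on both sides of it. All 9 type 2 cell markers were below 0, from -0.55 to -0.04, with sums of 447 on the transgenic array and 586 on the C57BL6/N array. Scd1, made in those cells too, was at 0.92. All 8 endothelial markers were below 0, from -1.10 to -0.32, with sums of 50.3 on the transgenic array and 85 on the C57BL6/N array. Fabp4, which endothelium also makes, was at 2.32. The part of lung cells in the differences of Scd1 and Fabp4 was not tested. Markers of alveolar macrophages lay on both sides of 0, with a median of 0.05. Of 12, 1 was past 1.5-fold on the higher side (10.2% of all genes), Fabp5 (0.60). The 4 on the lower side (8.31% of all genes) were Krt79 (-1.97), Fabp1 (-1.41), Siglecf (-0.83) and the scavenger receptor Marco (-0.78). The sums were 192 on the transgenic array and 177 on the C57BL6/N array. Chil3 weighs most in them, at 127995 on the transgenic array and 117493 on the C57BL6/N array (-0.02). Markers of fat cell progenitors and lipofibroblasts had a median of 0.18 over 8 genes, with sums of 14.7 on the transgenic array and 14.1 on the C57BL6/N array. Above 0 lay 5 of them, among them Pdgfra at 0.06, Pi16 at 0.82 and the dim Dlk1 at 1.56. The 3 below 0 were Dpp4 (-0.52), Tcf21 (-0.18) and Cd34 (-0.08). Of 6 lymphocyte markers of thymus and lymph node, 0 were at least 1.5-fold higher. Their sums were 2.54 on the transgenic array and 2.98 on the C57BL6/N array.

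**Figure D4:**
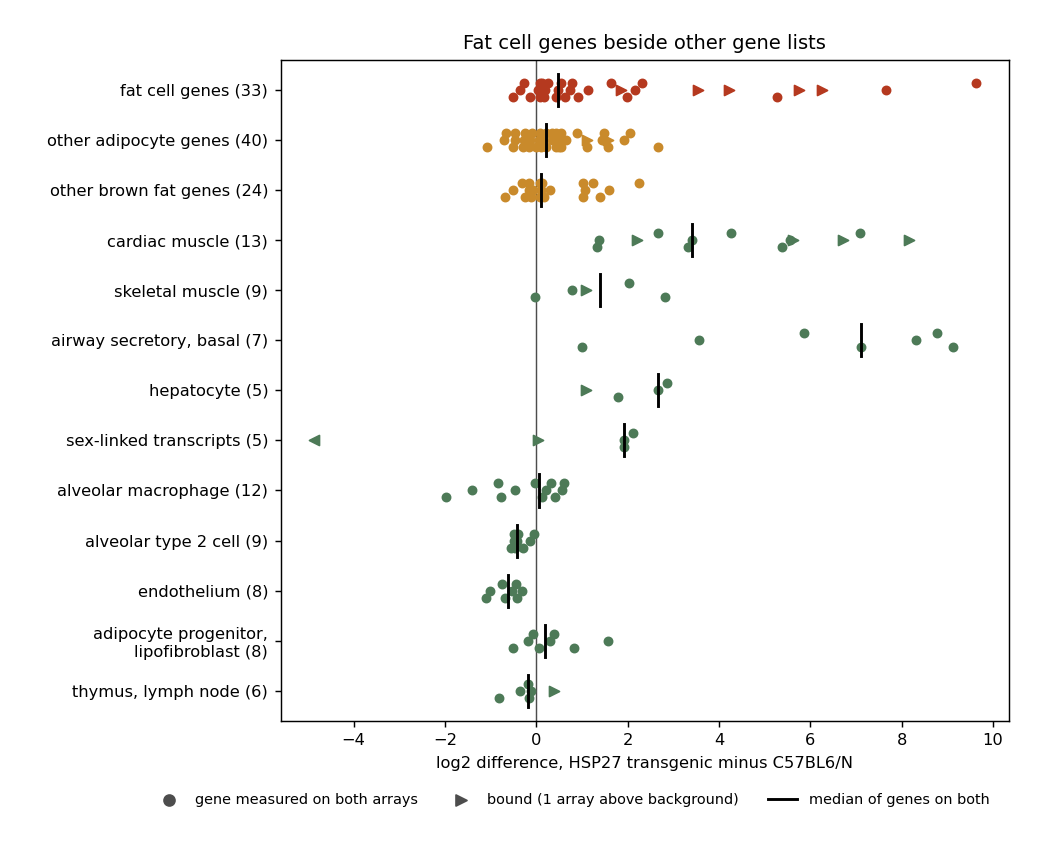
Log2 difference, transgenic minus C57BL6/N, of each gene of the 33 fat cell genes (red), further fat genes (ochre) and marker lists of other tissues and cells (green), with triangles for bounds and black bars at the median of genes measured on both arrays. The medians of cardiac muscle, airway and hepatocyte markers lie at 3.41, 7.10 and 2.66, those of type 2 cells and endothelium at -0.43 and -0.61, and that of the fat cell genes at 0.48.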

How the data were processed

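Per the file headers, the deposited array files give an intensity for each spot, made with Agilent Feature Extraction 11.5.1.1 in 1 colour (Cy3 per the labels), with background subtracted and trends removed within each array and no scaling between arrays. The software's spot flags (detection over background, saturation, outliers) were taken from the same files, per the file headers. The values deposited for the whole series are an intensity too. They equalled the processed signal within 0.1% for all 39012 single-spot probes compared. Both arrays shared a slide and a scan, and none of the probes was saturated.

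Control and outlier spots were left out, spots averaged on the log2 scale, and arrays scaled by their 75th percentile over 39429 probes. Of these, 27378 (69.4%) passed the background flag on the transgenic array and 27308 (69.3%) on the C57BL6/N array. RefSeq accessions without version named 27502 probes (69.8%) through a GRCm38.p6 gene table. The array headers name another build, so no probe positions are given. A probe was usable if, on both arrays, 50% or more of its spots passed the background flag and none was saturated, and a gene's value was the mean of its usable probes. A gene detected on only 1 array was given a bound, the brighter value over the higher of the dim signal and the dim array's lowest detected signal (12.5 on the transgenic array and 11.9 on the C57BL6/N array). For several such probes the smallest bound was used. Sums of a list include genes measured on both arrays or on 1.

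There was 1 array per group, so no p-value is given. Calls are differences past 1.5-fold or 2-fold. The technical SD came from 3 brightness groups of 105 probes with 10 spots each. The 33 genes and all lists were chosen with earlier results of these data known. Named genes were taken from the 33, their family members, the 4 largest differences past 1.5-fold in each direction and the 2 largest bounds of each other list, and a set of defining genes. Not all of them are printed, some are not reported here, and markers detected on neither array or linked to sex were named besides. The steps were tested on simulated data. Alternatives were median scaling, quantile normalization, cyclic loess, normexp with an offset of 50, no filter on dim probes, 2 stricter filters, the brightest probe per gene, outlier spots kept and the deposited table. Python 3.11.15, numpy 2.4.6, pandas 2.3.3, matplotlib 3.10.9, R 4.3.3 and limma 3.58.1 were used.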

Additional observations from a re-analysis of the deposited data

How the results depend on the processing

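No paired analysis was possible because each group has 1 array. Under 10 alternatives, 1 of them chosen after seeing the data, 0 fat cell genes were at least 2-fold lower, and 10 to 13 were at least 2-fold higher, measured or by bound, against 13 in the processing reported. At 1.5-fold the higher genes numbered 13 to 18, against 17. At least 1.5-fold lower was 1 gene, Adrb3, with the brightest probe per gene and with the filter at the 25th percentile of probes well above background, chosen after seeing the data. That filter left Cfd, Car3, Retn and Aqp7 without a value, the first 3 of which had the largest measured differences of the fat cell genes, and gave a median of 0.26 for those left. Of the adipokines 1 was then past 1.5-fold, against 3, and of the other brown fat genes 4, against 7. The planned stricter filter removed no gene. Over all genes, 591 of 15491 were at least 2-fold higher and 289 lower in the processing reported. These were 306 and 112 of 15490 with normexp and 1195 and 736 of 20874 without the filter on dim probes. They were 300 and 176 of 12774 with the added filter, and 711 and 209 of 15491 with cyclic loess. At 1.5-fold, of the same genes, they were 979 and 682 with normexp and 2525 and 2080 without the filter. With the added filter they were 1033 and 885, and with cyclic loess 1930 and 971. The sign turned for Acaca and Ppargc1a under 3 alternatives each and for Acly, Mgll and Aqp7 under 1 each, all within 1.5-fold. Of 17 fat cell genes past 1.5-fold, 15 were past it with normexp, whose offset shrinks differences of dim probes. The largest differences rest on signals near background on the C57BL6/N array, and precision is limited by how few arrays there are.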
